A study of Homo sapiens with 6 samples.

Results

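TAL1 (also called SCL), TAL2, LYL1, LMO2, LMO4, LDB1, TCF3, TCF12 and TCF4 encode the core subunits of the SCL/TAL1 transcription factor complex and their closest relatives. They were taken by symbol from the deposited expression table and were 9 of its 58364 rows with values. All 9 stood on a single row each, and all 9 passed the filter on low values and were among the 15895 genes tested. The libraries were RNA-seq of cells derived from H1, a human embryonic stem cell (hESC) line, and collected at day 8 of hematopoietic differentiation. There were 2 libraries of wild-type (WT) cells and 4 libraries labelled MSX2-/-. MSX2 is a homeobox transcription factor, and the study asked whether its loss changes the passage of endothelial cells to blood cells. The MSX2-/- cells were 2 clones, called 1# and 2# in the table, with 2 libraries of each, and each clone is a single edited line with CRISPR/Cas9 edits in exon 2 of both MSX2 alleles. WT and both clones shared the H1 background and went through the same cytokine steps (activin A and BMP4, then VEGF and bFGF).

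The sample labels name sorted CD31+ cells for the MSX2-/- libraries only, whereas the methods of the study name them for both genotypes. PECAM1, which encodes CD31, was at 218 and 258 FPKM in WT and at 186 to 230 FPKM in MSX2-/-, so this marker was high in every library. FPKM is the number of fragments scaled for transcript length and for the size of the library. The growth protocol in the labels also speaks of HAND1 overexpression, which the study's text does not. MSX2 mRNA was at 1.44 and 3.64 FPKM in WT and at 5.62 to 31.8 FPKM in the libraries labelled MSX2-/-. The level of MSX2 mRNA therefore does not check the labels, since an edited gene can still be transcribed. Each replicate number carries its own set letter in the sample descriptions, F for number 1 and S for number 2, so that each set held 1 WT library, 1 library of 1# and 1 of 2#. What the letters stand for is not given in the sources used here. The difference between numbers 2 and 1 was correlated between WT, 1# and 2# (Pearson r of 0.51 to 0.64 across the 15895 genes). Each clone is therefore also set against WT of its own number, a library that both clones share.

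TAL1, TAL2 and LYL1 are class II basic helix-loop-helix (bHLH) proteins, which bind DNA after pairing with a class I bHLH protein, or E protein, encoded by TCF3, TCF4 or TCF12. The pair reads the E-box, a short palindromic DNA motif. LMO2 binds no DNA itself and bridges the bHLH pair to LDB1, a scaffold that dimerizes and also holds a GATA factor in the same complex. TAL1 and LMO2 are required for the emergence of blood, and the complex is known for activating erythroid and megakaryocytic genes and, in endothelium, for switching on the hemogenic program. ID proteins are helix-loop-helix proteins without a DNA-binding region, and they hold E proteins away from their class II partners.

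The promoters of TAL1 and LYL1 are shown because these paralogs are the class II genes whose levels rose most from set F to set S and whose MSX2-/- libraries were highest in set S. Each sequence runs from 250 bases before to 50 bases after an annotated start, is written 5′ to 3′ on the minus strand, and was taken from RefSeq on GRCh38.p14. Capitals mark TTATCT, the reverse complement of the GATA-type motif AGATAA, which was searched on both strands.
TAL1 promoter, chr1:47232286-47232585: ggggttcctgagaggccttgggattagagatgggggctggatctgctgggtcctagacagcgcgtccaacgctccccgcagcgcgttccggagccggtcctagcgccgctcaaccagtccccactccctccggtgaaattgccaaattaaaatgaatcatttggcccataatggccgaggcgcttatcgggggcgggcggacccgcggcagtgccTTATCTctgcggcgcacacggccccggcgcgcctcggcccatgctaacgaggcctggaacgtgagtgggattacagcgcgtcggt
LYL1 promoter, chr19:13102809-13103108: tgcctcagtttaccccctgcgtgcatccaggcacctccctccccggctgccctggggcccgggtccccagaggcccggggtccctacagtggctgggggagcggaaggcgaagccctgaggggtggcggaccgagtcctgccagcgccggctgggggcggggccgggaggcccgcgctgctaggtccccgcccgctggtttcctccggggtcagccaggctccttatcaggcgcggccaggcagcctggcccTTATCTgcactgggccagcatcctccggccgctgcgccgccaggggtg

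The motif began at position -35 from the start in the TAL1 window and at position 3 in the LYL1 window. A further TAL1 window (chr1:47231666-47231965) is not shown and held neither this motif nor an E-box. The TAL1 window shown lies outside the GENCODE span of the gene given below. AGATAA or its reverse complement was in 10.3% of the 35116 RefSeq promoter windows of this length and in 4 of the 23 windows of the 8 members that the table holds, namely in TAL1, LYL1 and TCF4. LMO2 is not in that table. The E-box CANNTG, which overlaps none of the capitals shown, was in 68.7% of all windows and in 13 of the 23. The TAL1 window shown held 1 E-box, at position -93, and the LYL1 window held none. TAATTG, a motif of MSX-type homeodomains, was in 7.38% of all windows and in 1 of the 23, a TCF12 window (chr15:56918837-56919136) at position -179. A match of letters is a description and does not show binding, and its absence does not show a lack of binding. By chromatin immunoprecipitation (ChIP-qPCR) the study reported MSX2 at the promoter of TAL1, in a region not compared with these windows. It also reported higher TAL1 mRNA in MSX2-/- CD31+ cells, by a heatmap of RNA-seq and by real-time PCR. RUNX1 and GATA2 were reported as higher in the same ways.

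TAL1 was at 33.6 and 42.1 FPKM in WT and at 47.9, 76.5, 42.4 and 79.8 FPKM in 1# replicate 1, 1# replicate 2, 2# replicate 1 and 2# replicate 2. All 4 MSX2-/- libraries lay above both WT libraries, although 2# replicate 1 exceeded WT replicate 2 by less than 1 FPKM. The gene lies on the minus strand at chr1:47216290-47232220 (GENCODE 29 on GRCh38), and the antisense gene AL135960.1 within it reached at most 3.32 FPKM. Whether the counting used strand is not given in the sources used here, and reads of the 2 genes cannot be told apart if it did not. The difference, MSX2-/- minus WT, was 0.64 ± 0.29 (SE) on the log2(FPKM + 1) scale, which did not pass the threshold in limma (adjusted p = 0.475, Benjamini-Hochberg over all genes tested). With a block for the replicate number the SE was 0.12 and the difference passed (limma, adjusted p = 0.0253).

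LYL1, the closest paralog of TAL1, was at 92.7 and 104 FPKM in WT, at 92.2 and 156 FPKM in 1# and at 95.6 and 171 FPKM in 2#. The groups overlapped: the replicate 1 libraries of all 3 lines stood together, and only the replicate 2 libraries of both clones stood above WT. The difference was 0.33 ± 0.28 (SE) and did not pass (limma, adjusted p = 0.773, and 0.198 with the block). TAL2, the third class II member, was the lowest of the 9 genes, at 6.38 and 5.79 FPKM in WT and between 5.43 and 6.45 FPKM in MSX2-/-. Its difference of -0.05 ± 0.15 (SE) lay within the spread between libraries.

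LMO2 was at 141 and 237 FPKM in WT, at 160 and 268 FPKM in 1# and at 164 and 274 FPKM in 2#. The groups overlapped, since WT replicate 2 stood above both MSX2-/- libraries of replicate 1, yet each MSX2-/- library stood above the WT library of its own number. Within number 1 the fold was 1.15 and within number 2 it was 1.14, both on the FPKM + 1 scale. The difference of 0.20 ± 0.31 (SE) did not pass (limma, adjusted p = 0.918). Adding the block brought the SE to 0.05, and the value stayed outside the threshold (limma, adjusted p = 0.0711). LMO2 turned to -0.18 when WT replicate 1 was left out. LMO4, a LIM-only relative of LMO2 expressed in many tissues, ranged from 31.3 to 39.8 FPKM in WT and from 30.1 to 43.7 FPKM in MSX2-/-, with a difference of 0.04 ± 0.19 (SE). LDB1, the scaffold, was at 133 and 153 FPKM in WT and at 126 to 147 FPKM in MSX2-/-, with a difference of -0.10 ± 0.11 (SE). Neither LMO4 nor LDB1 differed beyond the spread between libraries.

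TCF12, which encodes the E protein HEB, was at 47.4 and 42.1 FPKM in WT, at 34.8 and 32.6 FPKM in 1# and at 30.7 and 34.7 FPKM in 2#. All 4 MSX2-/- libraries lay below both WT libraries. The difference was -0.42 ± 0.12 (SE) and did not pass without the block (limma, adjusted p = 0.214), while with it the SE was 0.09 and it passed (limma, adjusted p = 0.0406). TCF3, which encodes E12 and E47 and was the most abundant of the 9 genes, was at 317 and 440 FPKM in WT, at 259 and 335 FPKM in 1# and at 299 and 336 FPKM in 2#. Each MSX2-/- library stood below the WT library of its own number, but the groups overlapped. The difference of -0.29 ± 0.17 (SE) did not pass (limma, adjusted p = 0.613, and 0.0796 with the block), and it was -0.53 with WT replicate 1 left out and -0.054 with WT replicate 2 left out. TCF4, which encodes E2-2, was at 57.3 and 80.2 FPKM in WT and between 62.2 and 81.5 FPKM in MSX2-/-, with a difference of 0.08 ± 0.17 (SE).

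**Figure D1:**
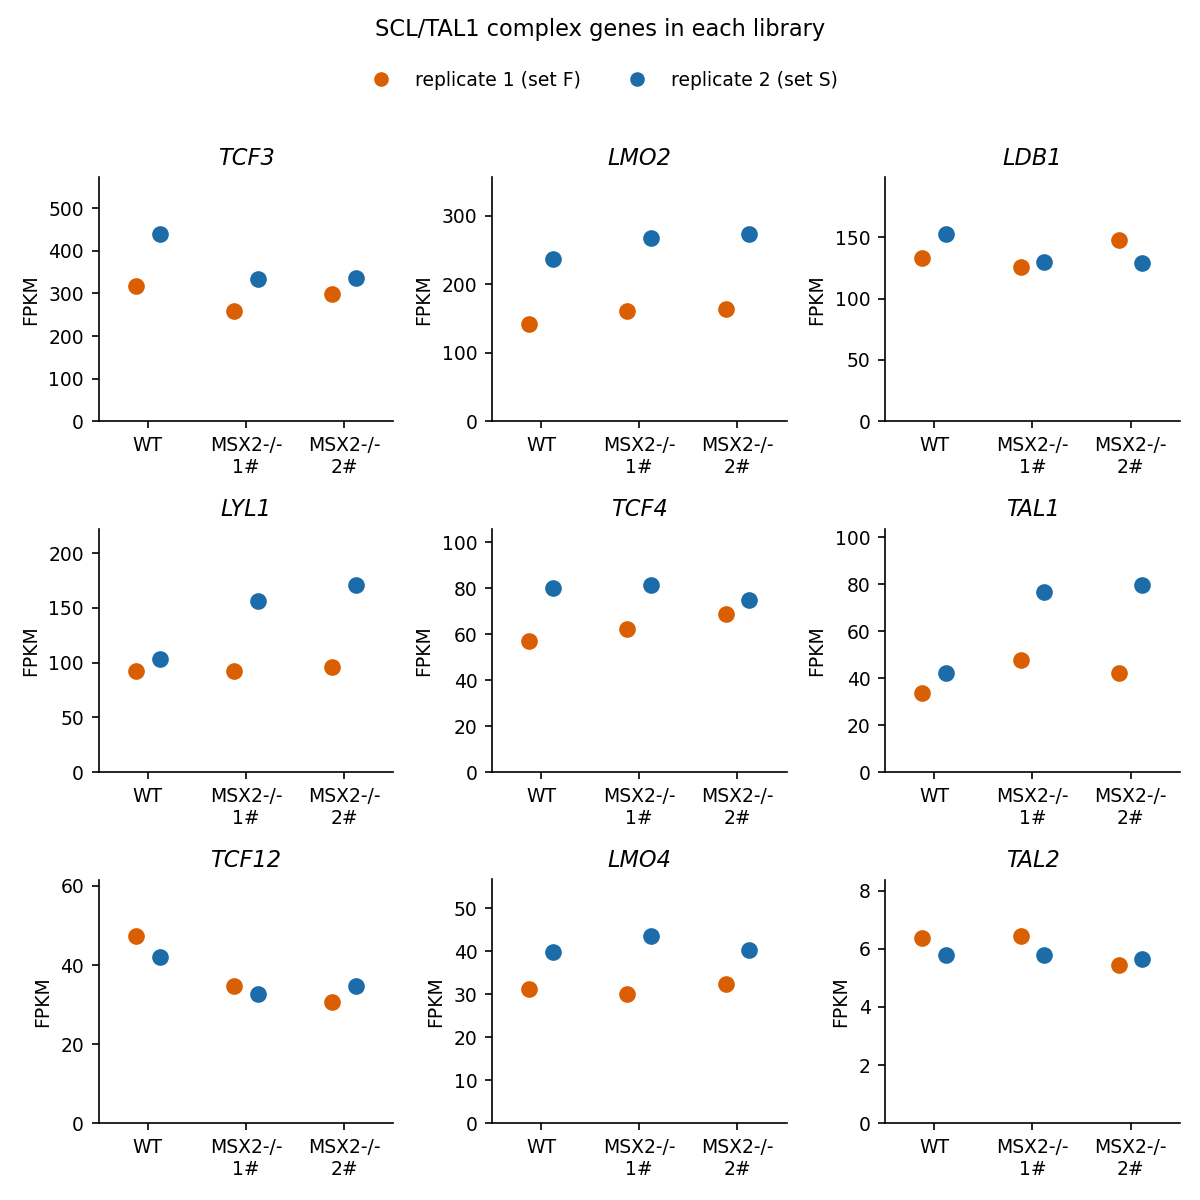
FPKM of each of the 9 genes (vertical axis, linear from 0) in WT and in the MSX2-/- clones 1# and 2#, with 1 point per library coloured by replicate number and its set letter. TAL1 is the gene with all 4 MSX2-/- points above both WT points, TCF12 is the gene with all 4 below, and in LMO2 every replicate 2 point (237 to 274 FPKM) stands above every replicate 1 point (141 to 164 FPKM).

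The plot of FPKM by library shows a step between genotypes in TCF12, downwards in MSX2-/-. TAL1 was higher in MSX2-/-, with no clear gap between the groups. In LMO2, LMO4, LYL1, TCF3 and TCF4 every replicate 2 library stood above every replicate 1 library. The share of all genes with this pattern was not counted. In the fit of set S against set F, 15.6% of all genes tested passed as higher in S. In TAL1 replicate 2 stood above replicate 1 within WT and within each clone. WT replicate 2 (42.1 FPKM), however, lay below 1# replicate 1 (47.9 FPKM) and was nearly level with 2# replicate 1 (42.4 FPKM). Without the block 0 of the 9 genes passed in limma, against 1.28% of all genes tested (204 of 15895), and 1 had an unadjusted p under 0.05, against 11.8% of all genes. With the block 2 of the 9 passed, TAL1 higher and TCF12 lower, against 9.85% of all genes tested. Both calls were lost when the block was combined with no filter on low values, an alternative chosen after the data were seen (0 of the 9 in limma, 4 at an unadjusted p under 0.05). In that fit 507 of 30029 genes passed and 5004 had an unadjusted p under 0.05. The WT and MSX2-/- libraries did not overlap for 2 of the 9 genes, the same pair, against 21.3% of all genes. Set against WT of their own number, 4 of the 9 genes moved 1 way in 4 of 4 MSX2-/- libraries, TAL1 and LMO2 upwards and TCF3 and TCF12 downwards, against 44.9% of all genes. The counts of genes without overlap and of genes with 4 of 4 in the same direction were thus near the share seen for all genes. The median difference of the 9 genes was 0.036, beside 0.0081 over all genes tested.

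The clones gave like values for the genes that passed with the block. TAL1 differed from WT by 0.67 in 1# and by 0.62 in 2#, and TCF12 by -0.40 in 1# and by -0.44 in 2#. With a single clone in the fit and the block kept, an alternative chosen after the data were seen, neither gene passed (limma, adjusted p of 0.0906 and 0.222 for TAL1 and of 0.158 and 0.254 for TCF12, for 1# and 2# in this order). The 9 genes held 0 calls in limma in either clone alone, with or without the block (at an unadjusted p under 0.05, 0 in each clone without it and 3 in 1# and 2 in 2# with it). Of the 15895 genes tested, 1193 in 1# and 954 in 2# had an unadjusted p under 0.05 without the block. With the block these counts were 2970 in 1# and 2537 in 2#.

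More of these genes passed for the replicate number, and with it the set letter, than for genotype in the same libraries. The comparisons differ in design, with 3 against 3 libraries for set and 4 against 2 for genotype. The same order held over all genes tested, with 5492 for set and 204 for genotype, or 1566 with the block. In set S against set F, with genotype in the fit, 6 of the 9 genes passed in limma and all 6 were higher in S, against 34.6% of all genes in either direction and 15.6% higher in S. LMO2 rose by 0.74 ± 0.05 (SE, adjusted p = 0.000938), which was more than any other of the 9. TAL1 rose by 0.63 ± 0.11 (adjusted p = 0.00925) and LYL1 by 0.58 ± 0.13 (adjusted p = 0.0201). LMO4, TCF3 and TCF4 rose by 0.33 to 0.39. Without the filter on low values, or without either library of 1#, 3 of the 6 passed. TAL2, LDB1 and TCF12 differed by -0.07, 0.02 and -0.03 and did not pass. Whether the letters mark a culture, a sort or a sequencing run cannot be told apart from the labels.

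**Figure D2:**
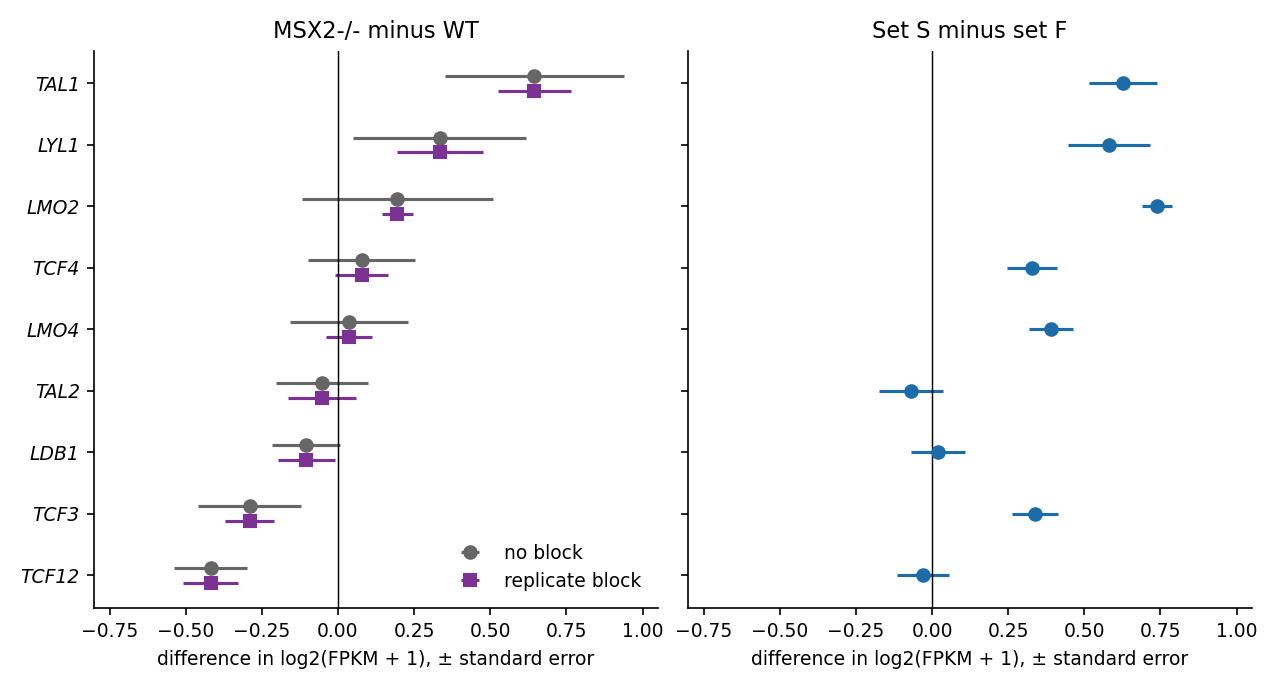
Difference in log2(FPKM + 1) with its standard error (horizontal axis) for each of the 9 genes, on the left for MSX2-/- minus WT without a block (grey circles) and with the replicate block (purple squares), and on the right for set S minus set F. The block leaves each difference in place and narrows its error, from 0.29 to 0.12 for TAL1, and on the right 6 genes stand to the right of 0 by 0.33 to 0.74.

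TAL1 and LYL1 also differed most between sets in the size of their genotype difference. Within number 1, TAL1 was 1.33-fold higher in MSX2-/- than in WT, and within number 2 it was 1.83-fold higher, on the FPKM + 1 scale. LYL1 was at 1.01-fold within number 1 and at 1.57-fold within number 2. The interaction of genotype and set was 0.46 ± 0.15 (SE) for TAL1 and 0.63 ± 0.12 (SE) for LYL1, and neither passed (limma, adjusted p of 0.398 and 0.333). Of the 9 genes, 0 passed this test in limma, against 0.0189% of all genes, and 2, TAL1 and LYL1, had an unadjusted p under 0.05, against 11.4% of all genes. The interaction rests on 1 WT library per set and 2 residual degrees of freedom.

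Ordered by mean over the 6 libraries, the levels were TCF3 at 331 FPKM, LMO2 at 207, LDB1 at 136, LYL1 at 119, TCF4 at 70.9, TAL1 at 53.7, TCF12 at 37.1, LMO4 at 36.3 and TAL2 at 5.92. The ranges of neighbours in this order did not overlap only between LYL1 and TCF4 and between LMO4 and TAL2. TCF3 was above LMO2, and LMO2 above LDB1, in 6 of 6 libraries, although their ranges overlapped. LDB1 was above LYL1 in 4 of 6 libraries and TCF12 above LMO4 in 3 of 6, so that the order of these neighbours was not fixed. LYL1 was thus the main class II transcript, with 62.9% to 69.9% of the summed FPKM of TAL1, TAL2 and LYL1. The share of TAL1 in that sum was 25.3% and 27.8% in WT and 29.6% to 32.7% in MSX2-/-, with no overlap. TCF3 made up 72.7% to 78.3% of the summed FPKM of the E proteins, and the share of TCF4 was 13.6% and 14.3% in WT and 16.8% to 18.2% in MSX2-/-, with no overlap. These shares are descriptions, and no test was made of them.

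The ratio of summed class II FPKM (TAL1, TAL2 and LYL1) to summed E protein FPKM (TCF3, TCF4 and TCF12) was 0.314 and 0.270 in WT, 0.412 and 0.531 in 1# and 0.360 and 0.575 in 2#. Every MSX2-/- library stood above both WT libraries. The difference in its log2 was 0.66, with a two-sided exact permutation p of 0.133, where 0.0667 is the smallest that 15 arrangements of 4 and 2 libraries allow, so that the design cannot pass 0.05. Both terms of the ratio differed within each number, by less within number 1. Within number 2 the class II sum was 152 FPKM in WT and 238 and 256 FPKM in the clones. The E protein sum there was 563 FPKM in WT and 449 and 446 FPKM in the clones. Within number 1 the class II sum was 133 FPKM in WT and 147 and 143 FPKM in the clones. The E protein sum there was 422 FPKM in WT and 356 and 398 FPKM in the clones.

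**Figure D3:**
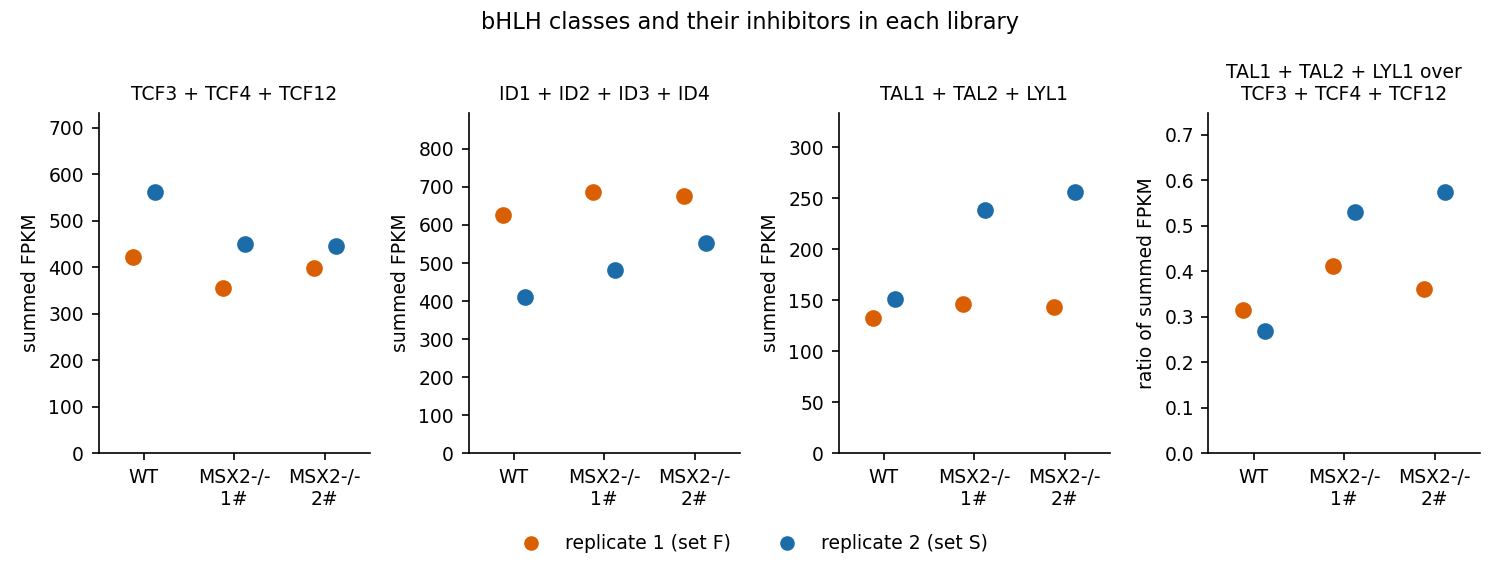
Summed FPKM per library of the E proteins, the ID inhibitors and the class II bHLH genes, and the ratio of the class II sum to the E protein sum (vertical axes, linear from 0), with 1 point per library coloured by replicate number. The ratio is at 0.314 and 0.270 in WT and at 0.360 to 0.575 in the clones, while the ID sum is higher in every replicate 1 library (627 to 688 FPKM) than in every replicate 2 library (412 to 552 FPKM).

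Of the inhibitors of E proteins, ID2 rose in MSX2-/- cells and the other 3 did not pass. Over all genes tested 1.28% passed without the block and 9.85% with it. ID2 was at 52.2 and 63.8 FPKM in WT, at 124 and 148 FPKM in 1# and at 116 and 178 FPKM in 2#, a difference of 1.26 ± 0.19 (SE; limma, adjusted p = 0.0404, and 0.00163 with the block). Without the block this call was lost whichever of the 6 libraries was left out, while the difference stayed between 1.12 and 1.40. ID1, the most abundant of the family, was at 428 and 229 FPKM in WT and at 241 to 427 FPKM in MSX2-/- (difference 0.07). ID3 differed by -0.27 and ID4 by 0.52, and the 4 ID4 libraries of MSX2-/- (11.8 to 18.0 FPKM) lay above both of WT (8.92 and 9.54 FPKM). Such a lack of overlap, in either direction, was seen for 21.3% of all genes tested. The ratio of summed ID to summed E protein FPKM was 1.49 and 0.732 in WT, 1.93 and 1.07 in 1# and 1.69 and 1.24 in 2#. It exceeded that of WT of the same number in 4 of 4 libraries, but the groups overlapped (log2 difference 0.47, two-sided exact permutation p = 0.333), and without WT replicate 2 the difference was -0.042.

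GATA1 and GATA2, of the GATA factors that LMO2 and LDB1 tie to the bHLH pair, rose in MSX2-/- cells. GATA1, the erythroid and megakaryocytic factor, was at 7.68 and 8.90 FPKM in WT and at 17.5 to 20.8 FPKM in MSX2-/- (difference 1.15, limma, adjusted p = 0.0220). GATA2, which acts earlier in blood progenitors, was at 55.8 and 59.7 FPKM in WT and at 127 to 167 FPKM in MSX2-/- (difference 1.28, adjusted p = 0.0152). KLF1, an erythroid zinc finger factor that works beside the complex, rose by 1.85 (adjusted p = 0.0394), while GATA3 differed by -0.03. Of the 7 DNA-binding partners, 3 rose and 0 fell, against 1.28% of all genes tested that passed. With the block 4 rose and 1 fell, against 9.85% of all genes tested. These shares over all genes also stand beside the counts of the lists below. RUNX1, the runt factor needed for blood emergence, rose by 1.25 (limma, adjusted p = 0.00163 with the block). ERG, an ETS factor of endothelium and stem cells, fell by 0.58 (limma, adjusted p = 0.00463 with the block). Without WT replicate 1 and without WT replicate 2 the difference was 0.70 and 1.81 for RUNX1 and -1.01 and -0.15 for ERG. FLI1, another ETS factor, differed by -0.16 and did not pass. Without the block the calls of GATA1 and KLF1 were lost with any of the 6 libraries left out and that of GATA2 with 4 of them, although the differences kept their sign (1.06 to 1.24, 1.70 to 2.00 and 1.20 to 1.33).

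With the block, the LDB1 relative LDB2 and a protein that stabilizes LDB1, SSBP2, fell, and SSBP4 rose. LDB2, which can take the place of LDB1, was at 404 and 285 FPKM in WT and at 153 to 261 FPKM in MSX2-/-, and it fell by 0.77 with the block (limma, adjusted p = 0.00288). SSBP2, of the single-stranded DNA binding proteins that protect LDB1 from degradation, fell by 1.08 with the block (adjusted p = 0.00153), whereas its relative SSBP4 rose by 0.31 with the block (adjusted p = 0.0372). SSBP3 and RLIM, a ubiquitin ligase that acts on LDB1, differed by 0.14 and 0.21 and did not pass. LDB1 made up 24.8% and 34.9% of the summed FPKM of LDB1 and LDB2 in WT and 33.3% to 45.9% in MSX2-/-, with overlap. LMO1, LMO3 and LHX2 did not pass the filter. Without the block 0 of the 5 tested genes of this list passed in limma (3 at an unadjusted p under 0.05).

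Of 12 corepressors and coactivators of the complex, 0 passed without the block in limma (2 at an unadjusted p under 0.05) and 2 rose with it. The shares of all genes tested that passed were 1.28% and 9.85%, in this order. CBFA2T3, which encodes the corepressor ETO2, was at 4.63 and 14.7 FPKM in WT and at 23.2 to 37.4 FPKM in MSX2-/- (difference 1.74, limma, adjusted p = 0.00798 with the block). GFI1B, a repressor that recruits KDM1A in erythroid cells, was at 2.70 and 6.50 FPKM in WT and at 7.17 to 17.3 FPKM in MSX2-/- (difference 1.17, adjusted p = 0.00290 with the block). The enzymes of these complexes did not pass: KDM1A, HDAC1 and HDAC2 differed by -0.04, 0.05 and -0.03. The size of both rises varied with the WT libraries: without WT replicate 1 and without WT replicate 2 the difference was 1.002 and 2.48 for CBFA2T3 and 0.66 and 1.68 for GFI1B.

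Genes known in the literature as targets of the complex moved both ways, with 2 higher and 1 lower of 14 tested. With the block 4 were higher and 2 lower. Over all genes tested 1.28% passed without the block and 9.85% with it. ALAS2, the first enzyme of erythroid heme synthesis, and NFE2, an erythroid and megakaryocytic factor, rose by 2.64 and 1.40 (limma, adjusted p of 0.0152 and 0.0110). ALAS2 was at 7.48 and 9.28 FPKM in WT and at 42.2 to 84.8 FPKM in MSX2-/-. With the block GP1BA, an adhesion gene of megakaryocytes, and MYB, a factor of blood progenitors, rose by 0.76 and 0.72. CDH5, which encodes VE-cadherin of endothelial junctions, was at 423 and 379 FPKM in WT and at 230 to 269 FPKM in MSX2-/- and fell by 0.65 (adjusted p = 0.0453). TEK, a receptor of endothelium, fell by 0.84 with the block (adjusted p = 0.0170). The other 8 did not pass with or without the block, among them the embryonic globin genes HBE1 and HBZ (1.24 and 1.38), the receptor genes EPOR and KIT (-0.32 and -0.30) and CD34 (0.04). The median over the 14 was 0.29. GP1BA was at 0.27 without WT replicate 1 and at 1.24 without WT replicate 2. Without the block NFE2 lost its call with 4 of the 6 libraries left out in turn, ALAS2 with 5 and CDH5 with all 6. Of the 10 partner, corepressor and target genes called with the block alone, 5 (SSBP4, CBFA2T3, GP1BA, MYB and TEK) lost the call when the block was combined with no filter on low values, 7 (all but RUNX1, LDB2 and SSBP2) with clone 1# alone and all 10 with clone 2# alone.

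Among other class II bHLH genes that pair with E proteins, HAND1 was at 2.32 and 1.14 FPKM in WT and at 9.61 to 22.5 FPKM in MSX2-/-, and it rose by 2.44 (limma, adjusted p = 0.0382). Because the labels mention overexpressed HAND1 in the growth protocol, whether this rise goes with the MSX2 genotype or with that treatment cannot be told apart. HAND2, its paralog in heart and mesenchyme, rose by 1.45 (adjusted p = 0.0208). Both calls were lost without the block when any 1 library was left out. The other 6 of the 8 tested did not pass, with or without the block. The summed FPKM of this list was 56.8 and 37.9 in WT and 75.9 to 109 in MSX2-/-, below the class II sum of TAL1, TAL2 and LYL1 in every library. The 7 genes near TAL1, LYL1 and LMO2 in the genome gave 0 calls in limma with or without the block (0 at an unadjusted p under 0.05 without it and 2 with it), and their median difference was 0.22. PDZK1IP1, STIL and CMPK1, which lie near TAL1, differed by 0.38, 0.30 and 0.22.

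**Figure D4:**
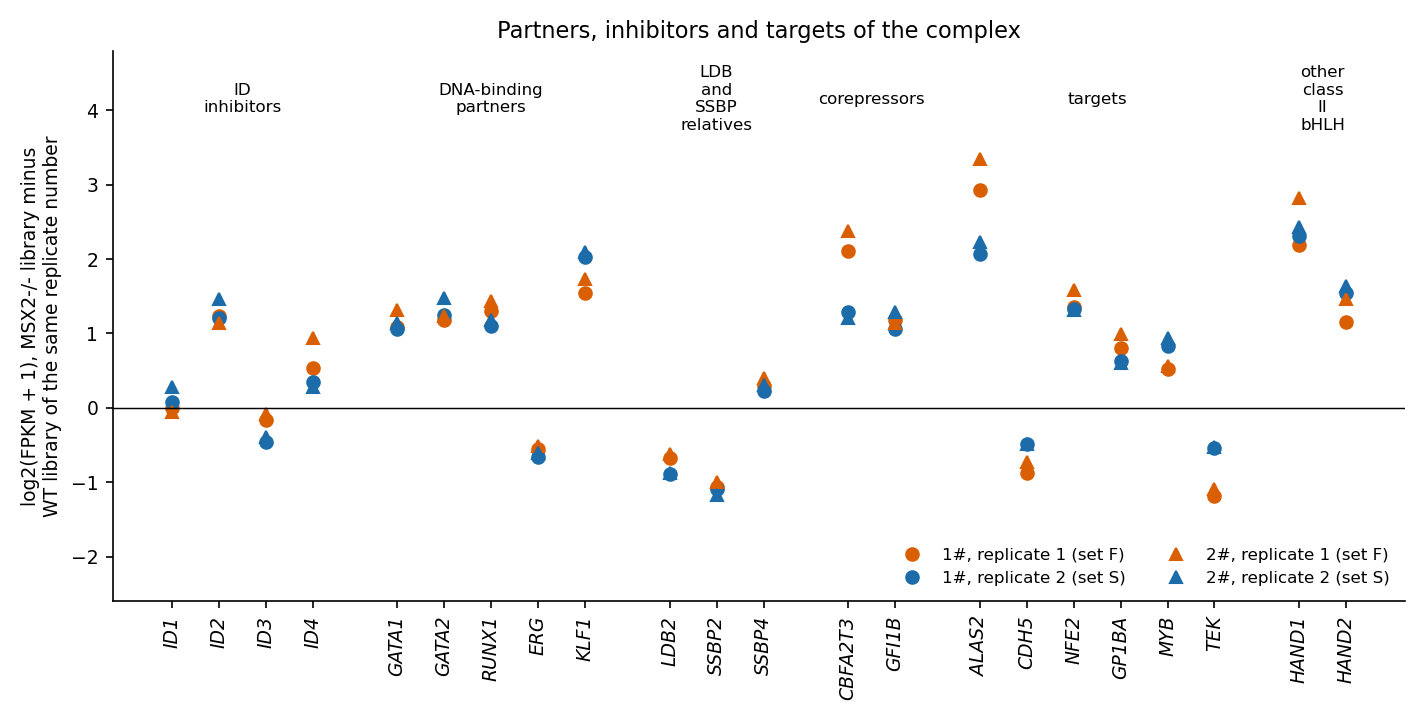
Difference in log2(FPKM + 1) between each MSX2-/- library and WT of the same replicate number (vertical axis) for the ID genes and for the partner, corepressor, target and other class II genes named in the text, with circles for 1#, triangles for 2# and colour for the replicate number. All 4 points stand above 0 for GATA1, GATA2, KLF1, NFE2 and ALAS2 and below 0 for LDB2, SSBP2, CDH5 and TEK.

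The genes whose pattern was most like that of TAL1 over the 6 libraries were ART4 and RCN1 (Pearson r of 0.999 for both), MRPL32 (0.995), TNPO1 (0.994) and PRDM1 (0.993), among the 9546 genes whose mean reached 5 FPKM. With 6 libraries that share sets and genotypes, 560 of these genes had an r above 0.9 and 8 had an r above 0.99. Among the 9 genes, TAL1 was most like LYL1 (0.94) and LMO2 most like LMO4 (0.96). TAL1 and TCF12 had an r of -0.59.

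In these bulk libraries a change in the number of cells of a type and a change in RNA per cell cannot be told apart. Beside the difference in TAL1, the markers of blood progenitors (SPN, PTPRC, ITGA2B, GFI1B and MYB) summed to 46.8 and 69.1 FPKM in WT and to 76.0 to 106 FPKM in MSX2-/-, and 3 of the 4 tested rose with the block. PTPRC, which encodes the leukocyte antigen CD45, was at 0.115 FPKM or less in every library. The 8 endothelial markers summed to 2060 and 2330 FPKM in WT and to 1454 to 1912 FPKM in MSX2-/-, with 5 lower and 1 (SOX17) higher with the block. The 6 mesenchymal markers summed to 134 and 189 FPKM in WT and to 369 to 414 FPKM in MSX2-/-. With the block 4 rose, against 9.85% of all genes tested that passed, with COL1A1 at 2.30 and TAGLN at 1.94. PDGFRA and COL3A1 differed by 0.35 and -0.54 and did not pass with or without the block. COL1A1 alone was at 27.7 and 55.9 FPKM in WT and at 193 to 206 FPKM in MSX2-/-, a large part of the sum. Of the pluripotent markers NANOG and SOX2 did not pass the filter. Of the 3 tested, LIN28A rose by 0.45 with the block (0.17 without WT replicate 1). POU5F1 and DNMT3B differed by 0.08 and -0.06 and did not pass with or without the block. These lists share genes with the partner, corepressor and target lists (ERG, GFI1B, ITGA2B, MYB, CDH5 and TEK). The part of cell makeup in the differences of TAL1, TCF12 and ID2 was not tested.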

How the data were processed

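The authors deposited 1 table of FPKM values with a column per library and no read counts, so absolute depth is unknown, and the steps of low values put relative depth at 1.01 to 1.18 times that of WT replicate 1. The submitters' processing notes name BWA, Bowtie, RSEM and the build hg19, and the design text names TopHat and Cufflinks. Versions, annotation and use of strand are not given in the sources used here. Values stood on 58364 rows, and 1 row without any was left out. Among 56595 symbols, 342 had more than 1 row, and the row of highest mean then stood for a listed gene.

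Log2(FPKM + 1) of the 15895 genes whose mean reached 0.5 FPKM was fitted with limma 3.58.1 in R 4.3.3 (mean-variance trend, Benjamini-Hochberg, threshold 0.05), a step tested on simulated data. The study states no covariate, so the fit without a block came first and a block for the replicate number was the alternative. The difference between numbers 2 and 1 was correlated between lines, with r of 0.51 for WT and 1#, 0.54 for WT and 2# and 0.64 for 1# and 2# across 15895 genes. The set letters in the descriptions follow the number. The study's methods say in general that experiments were independent. The labels, however, do not say that these libraries came from separate cultures, so p-values measure the spread between these libraries, which may be technical. The 4 MSX2-/- libraries came from 2 clones and entered the fits without a term for clone, except where 3 groups are named. The p-values therefore do not speak for MSX2-/- lines beyond these 2 clones. A fold on this scale understates the change of low genes.

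The 9 genes and all lists were chosen with earlier results of these data known, and a few list genes are not reported here. Named genes were the 9, ID1 to ID4, MSX2, of each other list at most 8 genes that passed with or without the block, and the 5 genes most like TAL1 among those whose mean reached 5 FPKM. Others were named after their values were seen, as members of a list that did not pass. Gene positions came from GENCODE 29 on GRCh38 by symbol and promoters from RefSeq on GRCh38.p14. The build used to make the FPKM may differ from these.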

Additional observations from a re-analysis of the deposited data

How the results depend on the processing

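The table has no counts, so limits of depth could not be set. Of the genes that passed without the block, 204 became 1566 with the replicate block, 125 without a filter on low values, 6 with WT, 1# and 2# as 3 groups, 0 with clone 1# alone (1193 at an unadjusted p under 0.05), 1 with clone 2# alone and 11 to 76 when 1 library was left out. Combined settings were added after the data were seen, and with the replicate block they gave 1612 on rescaled libraries, 507 without the filter, 234 with clone 1# alone and 38 with clone 2# alone. The 9 genes held 2 calls with the block and 2 with the block on rescaled libraries, TAL1 and TCF12, and 0 under every other setting run, including the block without the filter. For the sets, 5492 genes became 3593 without the filter and 3091 to 4707 when 1 library was left out, and the 6 members called became 3 without the filter and 3 to 5 when 1 library was left out, 3 of them without 1# replicate 1 or 1# replicate 2. For the interaction, 3 genes became 0 with a pseudocount of 0.1 FPKM and 693 without the filter, with 0 members throughout. Of the 11 named genes outside the 9 that passed without the block, 11 lost the call with 3 groups or with either clone alone, 8 without the filter, 3 without a mean-variance trend and 8 to 11 when 1 library was left out, and 0 with the replicate block. The cause of these shifts was not tested. TAL2 turned to 0.0073 with clone 1# alone, with and without the block. When 1 library was left out, TAL2 ranged from -0.11 to 0.0077, LMO2 from -0.18 to 0.57, LMO4 from -0.13 to 0.20, TCF4 from -0.16 to 0.32 and ID1 from -0.38 to 0.52. LMO2, LMO4, TCF4 and TAL2 turned without WT replicate 1, LMO4 also without replicate 2 of either clone, and ID1 without WT replicate 2 or replicate 1 of either clone. The log2 ratio of ID to E proteins ranged from -0.042 to 0.98. TCF3 ranged from -0.53 to -0.054 and LYL1 from 0.18 to 0.47. TAL1 kept its sign, between 0.49 and 0.80, and TCF12 its own, between -0.50 and -0.33.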
